A study of Mus musculus with 8 samples.

Results

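The aminoacyl-tRNA synthetases of mouse IMCD3 cells were followed through serum starvation, 20 enzymes of the cytosol and 16 of the mitochondria, 36 of the 16078 genes tested. A gene was a member if the name of a probe on the array, or the current symbol or a synonym reached through the probe's accession, was one of these 36 enzymes. IMCD3 is an established epithelial cell line, taken from inner medullary collecting ducts of mouse kidney. Starved IMCD3 cells spent 48 h in medium without fetal calf serum, whereas unstarved IMCD3 cells were kept in medium with 10% serum, were diluted 1:10 onto new dishes a day before harvest and were subconfluent. Serum and cell density therefore differ together between the groups. No allele or other agent separates them, and both come from 1 line. By its title, the study looked for genes that act downstream of the cilium factor FOXJ1.

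Each of 4 Agilent 2-colour arrays carried RNA of starved cells in one dye and RNA of unstarved cells in the other, so that there are 4 samples per group. The titles number 2 replicates. Arrays 1 and 3 belong to replicate 1, with starved RNA in Cy5, and arrays 2 and 4 to replicate 2, with starved RNA in Cy3. Replicate and dye orientation therefore cannot be told apart. Arrays of the same replicate correlated at 0.991 or more across genes, and arrays of different replicates at 0.824 to 0.830. All 16 collecting duct and epithelial markers were well above background, as were 2 of 8 fibroblast markers, 4 of 5 leukocyte markers and 0 of 4 endothelial markers. Of the epithelial markers 5 were called higher (31.2%) and 2 lower (12.5%) in starved cells, beside 18.1% and 13.3% of all genes tested. Of the 16 markers 9 lay below 0, and the median log2 ratio was -0.06. Those called higher were Cldn8 (4.49), Ehf (1.52), Cldn4 (0.86), the adhesion gene Cdh1 (0.67) and Epcam (0.61). Those called lower were the keratin genes Krt8 (-0.64) and Krt19 (-0.90). Of the 2 fibroblast markers measured Col1a1, a collagen gene, was called lower (-1.01), and of the 4 leukocyte markers Ptprc (-0.50). Ptprc was well above background on only 2 of the 4 arrays in starved cells, and on all 4 in unstarved cells. The part of these markers in the results below was not tested. As a whole culture was measured, fewer cells of a kind and less RNA per cell cannot be told apart.

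A synthetase joins an amino acid to the tRNA that reads its codons and so supplies the ribosome with charged tRNA. Cytosolic and mitochondrial ribosomes draw on separate sets of tRNAs, and for most amino acids separate nuclear genes encode the enzyme of each compartment, while Gars and Kars serve both. In mammals several cytosolic enzymes are held together on scaffold proteins in the multi-synthetase complex. Many cytosolic synthetase genes are known targets of ATF4, the transcription factor of the integrated stress response, which is made when amino acids run short or the endoplasmic reticulum is under stress.

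In starved cells 5 cytosolic enzymes rose, those for serine, cysteine, alanine, asparagine and tyrosine, and 2 fell, those for arginine and the alpha subunit for phenylalanine. Among the mitochondrial enzymes 1 rose, for phenylalanine, and 2 fell, for methionine and asparagine. The log2 ratio of starved over unstarved cells, averaged over 2 replicates, was tested with limma over all genes, and a gene with a Benjamini-Hochberg adjusted p below 0.05 is called. The 10 called members of 36 stand against 31.4% of all genes tested, which is about the same share. By direction, 18.1% of all genes were called higher and 13.3% lower, against 25% and 10% of the cytosolic and 6.25% and 12.5% of the mitochondrial enzymes. No member differed as much as 2-fold (0 of 36). All 36 had a probe well above background on every array in at least 1 group, so none was lost to the filter on dim probes. Replicates gave the same sign for 31 members and opposite signs for 5 (Vars, Hars2, Iars2, Lars2 and Tars2). Of all genes tested, 74.9% had the same sign in both replicates.

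**Figure D1:**
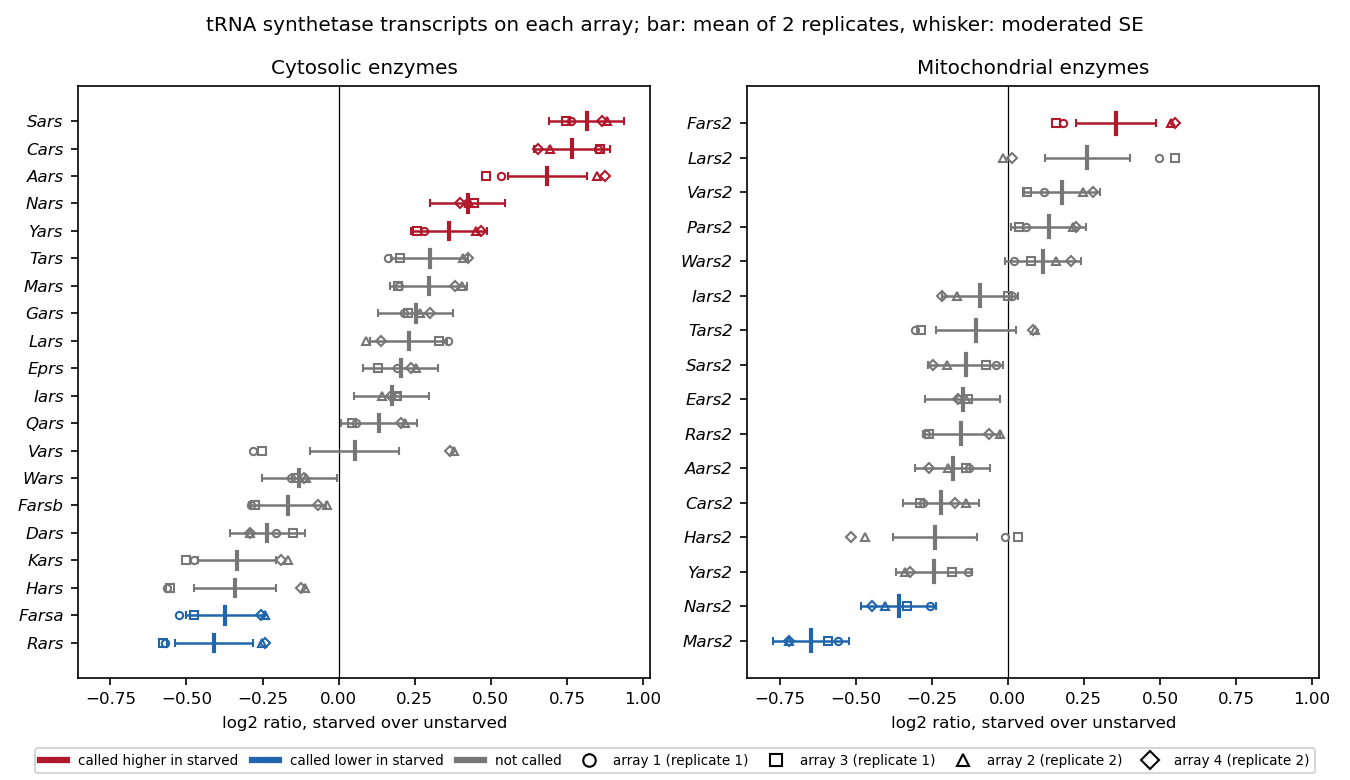
Log2 ratio of starved over unstarved cells for the 20 cytosolic (left) and 16 mitochondrial (right) enzymes. Open symbols are the 4 arrays, thick bars the mean of 2 replicates and whiskers the moderated standard error. Cytosolic means run from 0.81 for Sars to -0.41 for Rars, mitochondrial ones from 0.36 for Fars2 to -0.65 for Mars2, and symbols of a replicate lie close together.

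Levels below are single-channel log2 intensities after loess and between-array normalization. They are given in the order of arrays 1, 3, 2 and 4, and can be compared between groups but not between genes, since each probe binds with its own strength. Sars, which charges serine tRNA and also the selenocysteine tRNA, had levels of 16.65, 16.72, 16.87 and 16.73 in starved cells, against 15.89, 15.97, 15.99 and 15.87 in unstarved cells. All starved samples lay above all unstarved ones, and Sars rose by 1.76-fold (log2 ratio 0.81 ± 0.12 SE, n = 2, limma adjusted p = 1.00e-04). This was the largest ratio of the 36 members. Per the file headers, the Sars probe lies on chromosome 3 from 108554677 to 108554736 in build mm8. Cars, the cysteine enzyme, had levels of 14.68, 14.72, 14.72 and 14.65 in starved cells, against 13.83, 13.86, 14.03 and 13.99 in unstarved cells. Its groups did not overlap either, and it rose by 1.70-fold (0.77 ± 0.12, limma adjusted p = 1.98e-04). Its other 2 probes gave 0.64 and 0.75. Aars, the alanine enzyme, had 15.99, 16.04, 16.26 and 16.37 in starved cells, against 15.46, 15.55, 15.41 and 15.50 in unstarved cells. The starved levels of replicate 2 stood above those of replicate 1, and the replicate ratios were 0.51 and 0.86. Aars rose by 1.61-fold (0.69 ± 0.13, limma adjusted p = 7.75e-04), and its other 4 probes ran from 0.44 to 0.97.

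Nars charges asparagine tRNA, and its levels were 14.45, 14.60, 14.51 and 14.30 in starved cells, against 14.03, 14.15, 14.08 and 13.90 in unstarved cells. On every array the starved channel was higher by nearly the same amount, with replicate ratios of 0.43 and 0.41 (mean 0.42 ± 0.12, limma adjusted p = 0.0147). Yars, the tyrosine enzyme, had 13.79, 13.75, 13.85 and 13.84 in starved cells, against 13.51, 13.50, 13.40 and 13.37 in unstarved cells. It rose by 1.29-fold (0.36 ± 0.13, limma adjusted p = 0.0361) and lost the call when Agilent's processed signals were used (adjusted p = 0.0766) or the deposited value table (0.0742). With median centring of each array in place of loess, no member was called. Ratios under that setting were 0.45 for Sars, 0.56 for Cars, 0.36 for Aars, 0.23 for Nars and 0.21 for Yars. Those of the other called members, described below, were -0.48 for Rars, -0.55 for Farsa, -0.66 for Mars2, -0.38 for Nars2 and 0.31 for Fars2.

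Rars, which charges arginine tRNA and sits in the multi-synthetase complex, had the lowest cytosolic ratio. Its levels were 11.62, 11.66, 11.69 and 11.83 in starved cells, against 12.19, 12.24, 11.94 and 12.07 in unstarved cells. The groups did not overlap, but replicate 1 (-0.57) moved further than replicate 2 (-0.25), and the mean was -0.41 ± 0.13 (limma adjusted p = 0.0235). Farsa, the catalytic alpha subunit of the phenylalanine enzyme, had 13.76, 13.70, 13.88 and 13.81 in starved cells, against 14.28, 14.17, 14.12 and 14.06 in unstarved cells. It fell as well (-0.37 ± 0.13, limma adjusted p = 0.0337). Of its other 2 probes one gave -0.33 and the dimmest 0.30, and the mean over its probes was -0.14 and was not called (adjusted p = 0.406). Farsb, the beta subunit of that enzyme, had 12.01, 12.04, 12.10 and 11.99 in starved cells, against 12.30, 12.32, 12.14 and 12.06 in unstarved cells. These ranges overlap, and Farsb was not called (-0.17 ± 0.13, limma adjusted p = 0.345).

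The next 3 enzymes from the low end were not called. Hars, for histidine, had 13.78, 13.88, 14.01 and 13.80 in starved cells, against 14.34, 14.43, 14.12 and 13.93 in unstarved cells, with replicate ratios of -0.56 and -0.12 (mean -0.34, limma adjusted p = 0.0667). Replicate 1 carried most of that difference and the groups overlap. Kars, the lysine enzyme of both compartments, had 15.06, 15.09, 15.21 and 15.33 in starved cells, against 15.54, 15.59, 15.37 and 15.52 in unstarved cells (-0.33 ± 0.13, limma adjusted p = 0.0603). Here every starved level lay below every unstarved one. Without array 1, Hars (adjusted p = 0.0402) and Kars (0.0372) were called, and Kars was also called when the 4 arrays were fitted with the replicate as a random block (0.0423). Calls over all genes rose as well, from 5048 to 5515 without array 1 and to 5363 with the random block. Dars, for aspartate, had 14.34, 14.40, 14.44 and 14.38 in starved cells, against 14.55, 14.55, 14.74 and 14.67 in unstarved cells (-0.23 ± 0.12, limma adjusted p = 0.167). The groups did not overlap, as held for 51.8% of all genes tested and for 21 of the 36 members, 11 of them not called. The other 3 Dars probes ran from -0.50 to 0.12.

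Gars, which charges glycine tRNA in both compartments, had 12.92, 12.94, 12.95 and 13.06 in starved cells, against 12.70, 12.72, 12.68 and 12.76 in unstarved cells. Its ratio was positive on all 4 arrays and did not pass (0.25 ± 0.12, limma adjusted p = 0.134), so that of the 2 genes that serve both compartments Gars lay above 0 and Kars below it, neither of them called. Wars, for tryptophan, is a textbook interferon target. It had 14.45, 14.48, 14.48 and 14.41 in starved cells, against 14.60, 14.62, 14.58 and 14.52 in unstarved cells. Every starved level was the lower, by little, and Wars was not called (-0.13 ± 0.12, limma adjusted p = 0.465). Its dimmer probe gave 0.02. Of 8 other interferon response genes 7 were called higher (87.5%, against 18.1% of all genes tested) and 0 lower (against 13.3%). Among the 7 were Rsad2 (1.95), an antiviral enzyme, Psmb9 (1.66), an immunoproteasome subunit, Irf1 (1.08), a transcription factor, and Isg15 (0.46), a ubiquitin-like modifier. Wars was not tested against these genes.

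The remaining cytosolic enzymes were not called. Tars (threonine) had 0.30 ± 0.13 (limma adjusted p = 0.0842), Mars (methionine) 0.30 ± 0.13 (0.0850), Lars (leucine) 0.23 ± 0.13, Eprs, which joins the glutamate and proline enzymes in 1 protein, 0.20 ± 0.12, Iars (isoleucine) 0.17 ± 0.12 and Qars (glutamine) 0.13 ± 0.12. At the brightest probe all of these were positive in both replicates. Among their other probes, negative values in replicate 1 came from Eprs (-0.06, -0.07), Tars (-0.07), Qars (-0.03, -0.17) and Iars (-0.004). Another probe each of Eprs and Iars, and those of Lars and Mars, were positive in both replicates. With median centring Mars stayed above 0 (0.07), while Tars, Lars, Eprs, Iars and Qars turned below it. Vars, for valine, had opposite signs, -0.27 in replicate 1 and 0.37 in replicate 2. In the fit of 4 arrays with a random replicate block, Mars passed (adjusted p = 0.0389), and Tars passed when the single channels were fitted unpaired (0.0435). These fits called 5363 and 5861 of all genes, against 5048 in the main fit.

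**Figure D2:**
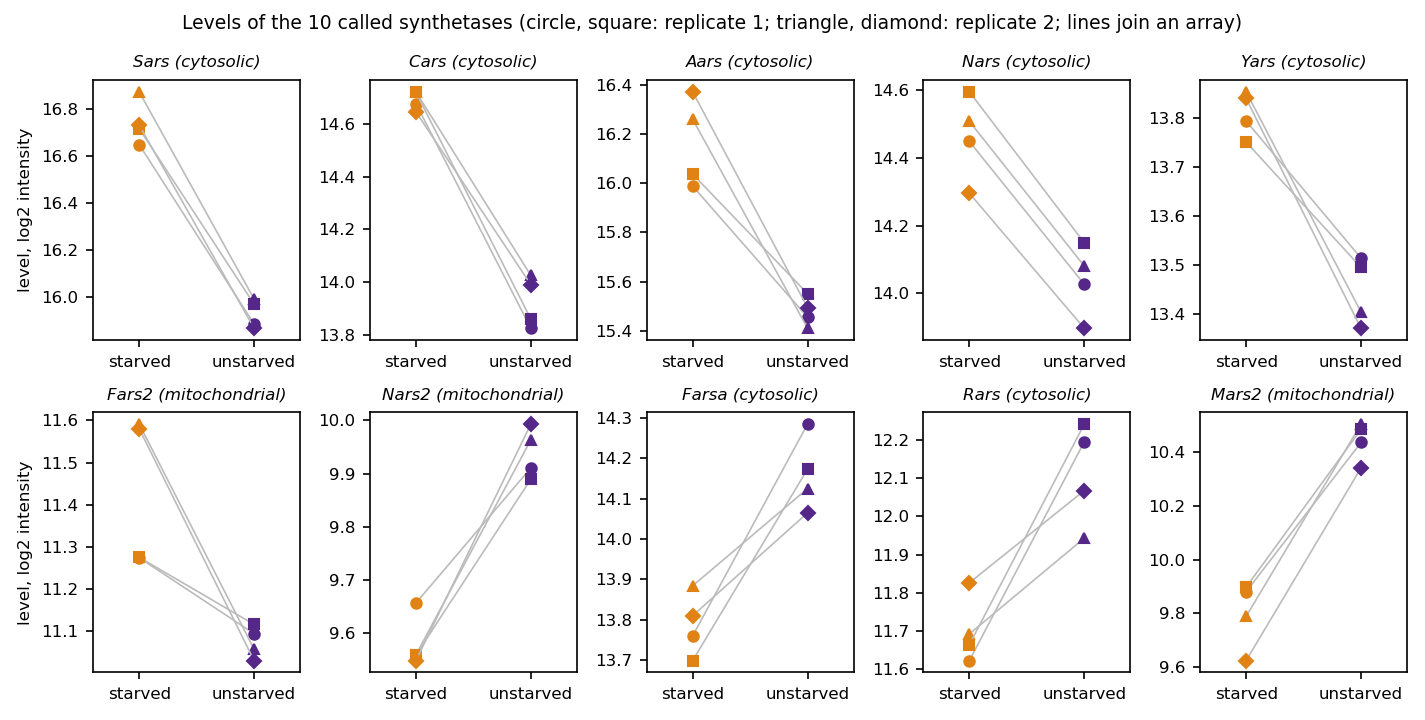
Levels (log2 intensity, an axis per gene that does not start at 0) of the 10 called enzymes in starved (left of each panel) and unstarved cells (right). Points are the 4 arrays, 2 of each of 2 replicates, with lines joining the channels of an array. In all 10 panels, picked by their call in these same data, the starved and unstarved points do not overlap. The same holds for 51.8% of all genes tested. Fars2 and Aars show the replicates apart within the starved group.

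Over the 20 cytosolic enzymes the median log2 ratio was 0.19, against 0.01 over all genes tested, with 13 members above 0. Centring each array on its median in place of loess turned it to -0.10, beside -0.08 for all genes. The cytosolic enzymes were set apart by whether they are commonly listed as ATF4 targets. Of 12 on such a list, 5 rose (41.7%, against 18.1% of all genes tested) and 0 fell (against 13.3%). Above 0 lay 11 of the 12, at a median of 0.30 (0.11 with median centring), and the exception was Wars. With median centring Eprs, Iars, Lars and Tars turned below 0. Of the 8 others 0 rose, 2 fell (25%) and 2 lay above 0, Qars and Vars, which turned below 0 with median centring. The median of the 8 was -0.28 (-0.47 with median centring, -0.16 with the mean of all probes). By replicate the listed enzymes had medians of 0.24 and 0.40 and the others -0.39 and -0.15. The list was drawn up with earlier results of these data known, and the 2 groups were not tested against each other.

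Of 25 genes of the ATF4 pathway that are no synthetase 19 rose (76%), 1 fell (4%) and 5 were not called, at a median of 0.70. Over all genes tested 18.1% were called higher and 13.3% lower. Atf4 itself rose (0.70 ± 0.14, limma adjusted p = 9.21e-04). The largest ratios were those of Chac1 (2.36), a glutathione-degrading enzyme, Nupr1 (2.34), a stress-induced chromatin protein, Vldlr (2.16), a lipoprotein receptor, and Trib3 (1.94), a pseudokinase. Asns, which makes asparagine, rose by 1.25 on the log2 scale, so that the enzyme that makes this amino acid and Nars, which loads it, were both called higher. For serine, the synthesis enzymes Psat1 (0.54, limma adjusted p = 0.00287) and Psph (0.64, 0.00324) rose along with Sars, while Phgdh, the first enzyme of that path, was not called (0.20, 0.239). For cysteine, Slc7a11, the cystine importer, rose (1.59), and Cth, which makes cysteine from cystathionine, fell (-0.50 ± 0.13, limma adjusted p = 0.00688). Xpot, the exportin that carries tRNA out of the nucleus, was not called (0.22, limma adjusted p = 0.197). Asns, Psat1, Psph, Phgdh, Slc7a11 and Xpot were picked for the amino acid or tRNA they handle, after their values had been seen.

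**Figure D3:**
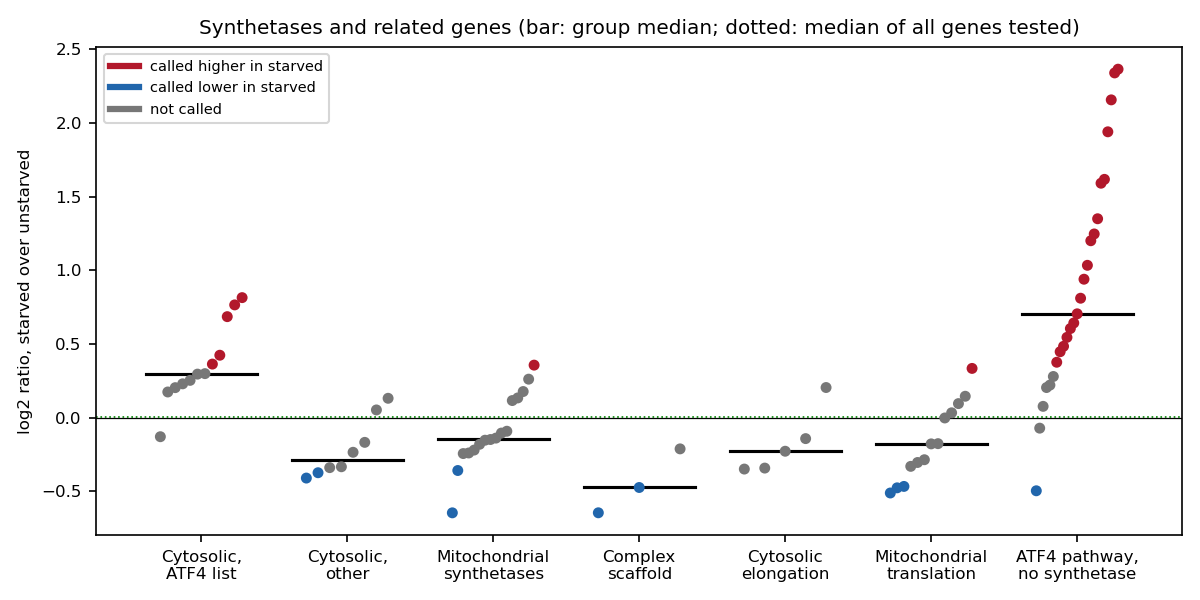
Log2 ratio of starved over unstarved cells for synthetases and related genes, a point per gene, coloured by call, with the group median as a bar and the median of all genes tested as a dotted line at 0.01. Medians are 0.30 and -0.28 for listed and other cytosolic enzymes, -0.14 for mitochondrial enzymes and 0.70 for the ATF4 pathway without synthetases.

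Of the 8 enzymes of the multi-synthetase complex (Dars, Eprs, Iars, Kars, Lars, Mars, Qars and Rars) 0 were called higher and 1 lower, with a median of 0.15. The 12 cytosolic enzymes outside it had 5 called higher (41.7%), 1 lower (8.33%) and a median of 0.28. Of all genes tested 18.1% were called higher and 13.3% lower, and 12.5% of the complex enzymes were called lower. Among the scaffold proteins of the complex, Eef1e1 (-0.65 ± 0.13, limma adjusted p = 9.61e-04) and Aimp2 (-0.47 ± 0.12, 0.00751) fell, and Aimp1 was not called (-0.21, 0.212). Scaffold genes lay below 0 in 3 of 3 cases and complex enzymes in 3 of 8, beside 7917 of the 16078 genes tested. Scaffold genes and enzymes were not tested against each other. Enzymes are also divided by the fold of their catalytic domain into class I and class II. Of 9 class I enzymes 2 rose and 1 fell (22.2% and 11.1%, median 0.17), which is about the share of all genes tested. Of 10 class II enzymes 3 rose and 1 fell (30% and 10%, median 0.04). The 5 cytosolic elongation factor genes examined (Eef1a1, Eef1b2, Eef1d, Eef1g and Eef2) gave 0 calls with limma. Their median was -0.23, with ratios from -0.35 for Eef1g to 0.20 for Eef2.

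Promoter sequences were read for the ATF4-listed enzymes that share a sequence element near the start site. They are RefSeq windows of GRCm38.p6, printed in lower case 5′ to 3′ along the gene from 150 bases before to 30 bases after the annotated start. Capitals mark the letters TGATGNAA, the ATF4-C/EBP element, on either strand. The windows are those of Aars at chr8:111033692-111033871 on the plus strand, Gars at chr6:55037851-55038030 on the plus strand, Iars at chr13:49681980-49682159 on the plus strand, Tars at chr15:11399629-11399808 on the minus strand and Yars at chr4:129189753-129189932 on the plus strand.
Aars: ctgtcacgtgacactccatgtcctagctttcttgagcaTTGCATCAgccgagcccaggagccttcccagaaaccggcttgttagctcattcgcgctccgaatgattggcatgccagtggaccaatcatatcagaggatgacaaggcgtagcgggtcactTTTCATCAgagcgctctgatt
Gars: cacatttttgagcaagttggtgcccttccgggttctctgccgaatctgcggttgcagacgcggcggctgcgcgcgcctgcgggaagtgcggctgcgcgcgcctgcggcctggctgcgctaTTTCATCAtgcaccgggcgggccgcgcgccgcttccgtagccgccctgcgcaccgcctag
Iars: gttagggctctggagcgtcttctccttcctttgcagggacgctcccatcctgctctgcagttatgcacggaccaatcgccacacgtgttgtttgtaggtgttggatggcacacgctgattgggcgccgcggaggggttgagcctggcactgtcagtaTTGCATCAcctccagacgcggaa
Tars: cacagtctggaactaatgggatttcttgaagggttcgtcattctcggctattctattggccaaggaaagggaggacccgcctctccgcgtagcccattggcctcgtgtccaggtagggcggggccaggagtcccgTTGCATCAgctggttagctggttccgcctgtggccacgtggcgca
Yars: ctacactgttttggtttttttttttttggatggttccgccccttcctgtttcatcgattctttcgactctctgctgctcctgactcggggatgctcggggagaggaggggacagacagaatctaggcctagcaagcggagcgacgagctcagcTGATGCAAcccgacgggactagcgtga

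The matches begin at positions -112 and 10 of Aars, -30 of Gars, 8 of Iars, -15 of Tars and 4 of Yars, counted from the start site as 1. Only the Yars match reads along the gene, and the others lie on the opposite strand. Over windows of 250 bases before to 50 after the start, 4.51% of 27025 genes hold the element. Windows were found for 13 of the 20 cytosolic enzymes, and 5 of the 13 hold it, all 5 on the ATF4 list. It was found in 0 of 14 mitochondrial enzymes with a window and in 0 of 5 cytosolic enzymes off the list. All 5 holders had ratios above 0, and 2 of them (Aars and Yars) were called. Eprs, Mars and Sars, listed enzymes whose window lacks the element, lay above 0 as well. With median centring the holders Iars (-0.08) and Tars (-0.07) turned below 0, as did Eprs (-0.03). Over the cytosolic enzymes with a window the median was 0.30 for the 5 that hold it and -0.02 for the 8 that lack it, and over all members with a window it was 0.30 for the holders and -0.14 for the 22 others. Within the list the median was 0.30 both for the 5 holders and for the 3 with a window that lacks it (Eprs, Mars and Sars). None of these differences was tested. Sars, with the largest ratio, and Farsa, one of the called falls, are shown as windows without a match, Sars at chr3:108445230-108445409 on the minus strand and Farsa at chr8:84856836-84857015 on the plus strand.
Sars: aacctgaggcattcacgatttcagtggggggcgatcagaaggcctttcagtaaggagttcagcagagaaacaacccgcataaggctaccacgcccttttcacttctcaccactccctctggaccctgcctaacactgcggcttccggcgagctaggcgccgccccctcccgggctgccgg
Farsa: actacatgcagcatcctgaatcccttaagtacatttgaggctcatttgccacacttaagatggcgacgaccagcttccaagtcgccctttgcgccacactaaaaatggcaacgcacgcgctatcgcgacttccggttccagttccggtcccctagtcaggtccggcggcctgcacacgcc

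For Cars, Hars, Lars, Nars, Rars, Vars, Wars, Hars2 and Pars2 no window was used here. The E-box CACGTG, held by 8.09% of genes, was found in Aars, Farsb, Iars and Tars and in the mitochondrial Ears2. The NRF1 element, held by 5.19% of genes, was found in Farsb, Kars and Tars and in the mitochondrial Iars2 and Mars2. Both strands were searched for each, CACGTG reads the same on both, and none of the 3 motifs is contained in another. A match describes the letters only, and its absence says nothing of sites outside these windows.

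**Figure D4:**
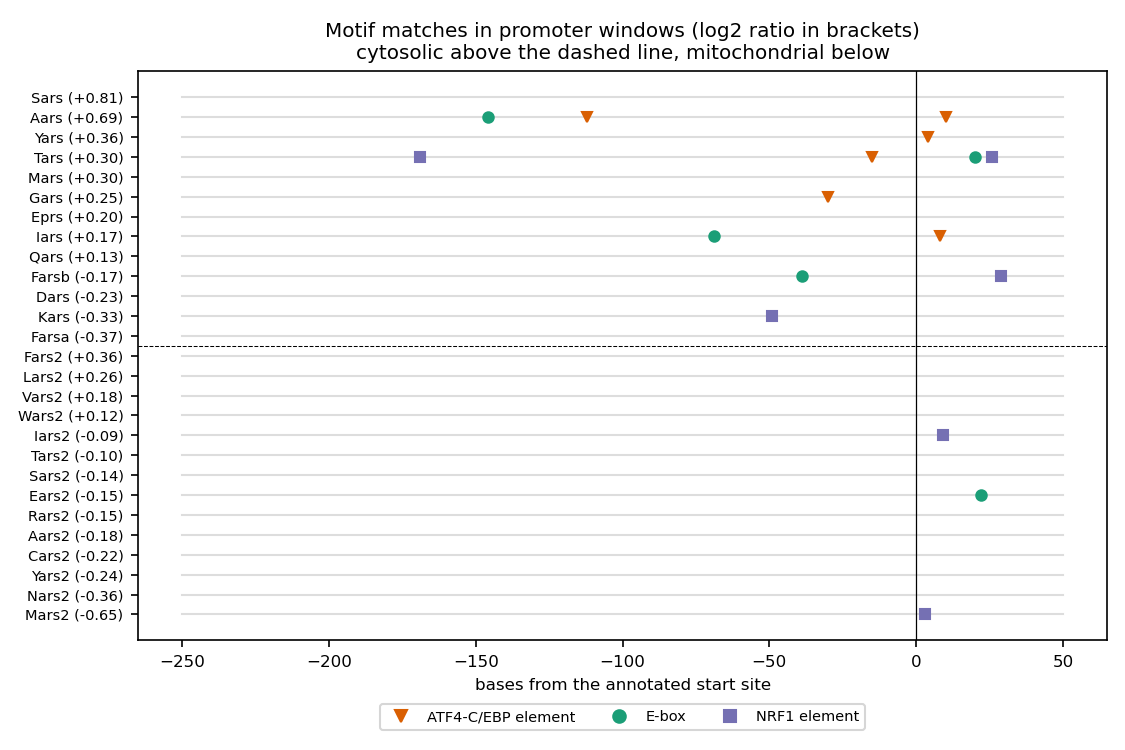
Positions of the 3 motifs in the promoter windows of the 27 members that have one, in bases from the annotated start site, with log2 ratios in brackets. Rows are ordered by ratio, cytosolic above the dashed line and mitochondrial below it. The ATF4-C/EBP element appears in 5 cytosolic rows, with ratios between 0.17 and 0.69, and in no mitochondrial row.

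The mitochondrial enzymes had a median log2 ratio of -0.14, and 11 of 16 lay below 0. Mars2, which charges the methionine tRNA of mitochondria, gave the lowest ratio of the 36 members. Its levels were 9.88, 9.90, 9.79 and 9.62 in starved cells, against 10.44, 10.49, 10.51 and 10.34 in unstarved cells. All starved samples lay below all unstarved ones, and Mars2 fell by 0.65 on the log2 scale (SE 0.12, n = 2, limma adjusted p = 8.36e-04). Its probe lies on chromosome 1 from 55183343 to 55183402 in build mm8, per the file headers. Nars2, for asparagine, had 9.66, 9.56, 9.56 and 9.55 in starved cells, against 9.91, 9.89, 9.96 and 9.99 in unstarved cells. It fell too (-0.36 ± 0.12, limma adjusted p = 0.0368), and its dimmer probe gave -0.22. Without a choice of the brightest probe, with the mean of both, Nars2 was not called (adjusted p = 0.0755).

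Fars2, the single-chain phenylalanine enzyme of mitochondria, had 11.27, 11.27, 11.59 and 11.58 in starved cells, against 11.09, 11.12, 11.06 and 11.03 in unstarved cells. It rose (0.36 ± 0.13, limma adjusted p = 0.0493), by 0.17 in replicate 1 and 0.54 in replicate 2. That call lies at the threshold and was lost without array 4 (adjusted p = 0.0536), with a filter on both groups (0.0518), with the mean of all probes (0.0526), with processed signals (0.0849) and with the deposited value table (0.0822). Lars2, for leucine, had 18.08, 18.28, 17.996 and 18.06 in starved cells, against 17.58, 17.73, 18.01 and 18.04 in unstarved cells. The starved level was higher on the arrays of replicate 1 (0.52) and level with the unstarved one on those of replicate 2 (-8.88e-04), so that Lars2 was not called (0.26 ± 0.14, limma adjusted p = 0.172). Vars2, for valine, had 11.87, 11.84, 12.12 and 12.14 in starved cells, against 11.75, 11.78, 11.87 and 11.86 in unstarved cells (0.18 ± 0.12, limma adjusted p = 0.310). Its groups overlap.

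Yars2, for tyrosine, had 14.00, 14.15, 13.98 and 14.12 in starved cells, against 14.13, 14.34, 14.32 and 14.44 in unstarved cells (-0.24 ± 0.12, limma adjusted p = 0.155). The remaining mitochondrial enzymes, none of them called, ran from -0.24 for Hars2 (histidine) to 0.13 for Pars2 (proline). Hars2 had 0.01 in replicate 1 and -0.49 in replicate 2, Iars2 (isoleucine) 0.01 and -0.19, and Tars2 (threonine) -0.30 and 0.09, so that in these 3 the replicates disagreed in sign. The other 2 probes of Iars2 gave -0.46 and 0.22. Wars2 (tryptophan) had 0.12 and its other 2 passing probes were negative. Ears2 (glutamate) had -0.15.

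Among 13 other genes of mitochondrial translation 1 rose (7.69%), 3 fell (23.1%) and 9 were not called, with a median of -0.18. Over all genes tested the shares were 18.1% higher and 13.3% lower. The falls were in Mtfmt, which formylates the methionine on the initiator tRNA that Mars2 charges (-0.51 ± 0.12, limma adjusted p = 0.00494), Gatc, a subunit of the amidotransferase that makes glutaminyl-tRNA (-0.48 ± 0.13, 0.0101), and Gfm1, an elongation factor (-0.47 ± 0.12, 0.00843). Mtif2, the initiation factor, rose (0.33 ± 0.12, limma adjusted p = 0.0487) and lost the call without array 2, 3 or 4. The other amidotransferase subunits were not called, Gatb with 0.10 and Qrsl1 with 0.15.

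Setting the enzymes of an amino acid side by side gave 17 pairs, since Eprs faces both Ears2 and Pars2, and Fars2 faces both Farsa and Farsb. The cytosolic ratio was above the mitochondrial one in both replicates in 10 pairs, below it in 4, and the replicates differed in 3 (histidine, leucine and valine). No test of these differences was made, and they are those after loess. With median centring the compartment medians lay closer, at -0.10 for cytosolic and -0.25 for mitochondrial enzymes, against 0.19 and -0.14 with loess. Mars was then at 0.07 (0.30 with loess) and Mars2 at -0.66 (-0.65 with loess), so that the size of a pair difference depends on the normalization. Only in 2 pairs were both enzymes called, and both times in opposite directions. Neither pair kept both calls with the mean of all probes. Under that setting limma gave adjusted p = 0.0755 for Nars2, 0.406 for Farsa and 0.0526 for Fars2. For asparagine Nars rose and Nars2 fell, 0.78 apart on the log2 scale, with 0.73 in replicate 1 and 0.84 in replicate 2. For phenylalanine Farsa fell and Fars2 rose, with a difference of -0.73.

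The widest pair was that of cysteine (0.99). Cars2 had 11.58, 11.51, 11.68 and 11.69 in starved cells, against 11.86, 11.80, 11.82 and 11.87 in unstarved cells, all starved levels the lower, and was not called (-0.22 ± 0.12, limma adjusted p = 0.198). The serine pair was 0.95 apart, and Sars2 had 11.67, 11.55, 11.61 and 11.65 in starved cells, against 11.71, 11.63, 11.81 and 11.90 in unstarved cells (-0.14 ± 0.12, limma adjusted p = 0.437). Here the groups overlap. For methionine the difference of 0.94 came mainly from the fall of Mars2, while Mars had 14.78, 14.96, 14.91 and 14.68 in starved cells, against 14.58, 14.76, 14.50 and 14.29 in unstarved cells. For alanine it was 0.87, with Aars2 at 12.52, 12.64, 12.52 and 12.15 in starved cells, against 12.65, 12.78, 12.72 and 12.41 in unstarved cells (-0.18 ± 0.12, limma adjusted p = 0.295). Both Mars and Aars2 had overlapping groups. Arginine ran the other way (-0.26), with Rars2 at 12.73, 12.87, 12.92 and 12.62 in starved cells, against 13.00, 13.13, 12.94 and 12.68 in unstarved cells (-0.15 ± 0.13, limma adjusted p = 0.391). In 8 pairs neither enzyme was called.

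**Figure D5:**
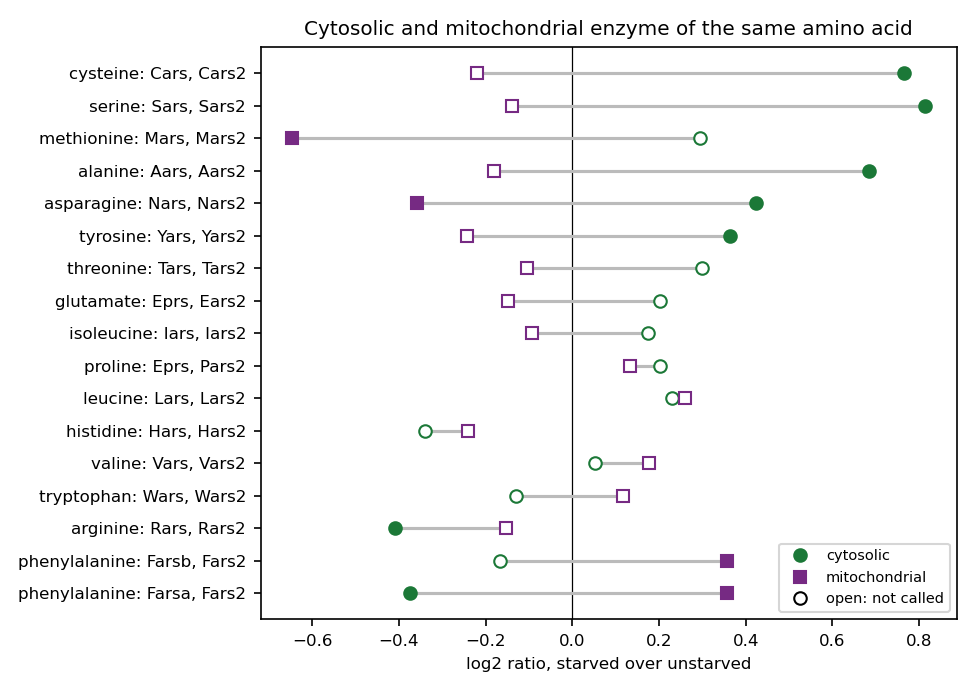
Log2 ratio of starved over unstarved cells for the cytosolic (circle) and mitochondrial (square) enzyme of the same amino acid in 17 pairs, filled where called. Pairs run from cysteine, where the cytosolic ratio is the higher by 0.99, to phenylalanine, where the difference of Farsa from Fars2 is -0.73. All ratios are those after loess.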

How the data were processed

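Per the file headers, the deposited spot intensity values are the mean signal and the median of the local background, not normalized. Agilent Feature Extraction 9.5.3.1 made them, according to the submitters' processing notes. The deposited value table, per the file headers an intensity per probe, follows the scanner's processed signal times 1 factor per array (0.753 to 0.806) with a floor at 15. Its column medians are 74.7 to 77.1, it is linear and not centred, its ratios follow the dye labels, and the reason for the scaling is not stated there. The deposited files of the 2 samples of an array are identical, and each sample was read in its labelled dye.

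In limma 3.58.1 (R 4.3.3), the background was corrected with normexp (offset 50), then ratios by loess on each array. Weight 0 was given to 1639 control spots of 45018 per array and to 583 flagged non-control spots over the 4 arrays. Of the non-control spots 0 were saturated. Probes were kept where 1 group or both stood well above background on all 4 arrays (24606 of 41174), and a gene is its brightest probe. Probes were named by RefSeq accession (24375), symbol (6301) or synonym (2426), and 8072 kept the array's name. The 36 members had 72 probes, 71 kept, and 7 of 21 members with several kept probes had one of opposite sign. The log2 ratios were averaged over the 2 arrays of each replicate, and the 2 means entered lmFit and eBayes, two-sided, adjusted over 16078 genes. Most of each standard error comes from the spread common to all genes (prior SD 0.179 on 14.9 degrees of freedom). The 2 replicates limit the precision. The series text calls the replicates biological and speaks of a dye swap within each pair, whereas by the dye labels each replicate has 1 orientation. The labels were followed. Deviations of same-numbered samples correlated at -0.297, but these carry opposite dyes, so the pairing was taken from the shared array. The arrays share 1 slide and 1 scan.

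Values per array were printed for the 5 highest and 5 lowest cytosolic and the 3 highest and 3 lowest mitochondrial enzymes, Gars, Kars, Wars and pairs split by the threshold. Related lists are given by log2 ratio, for up to 4 called genes each. Beside these stand Atf4 and others named in the text as picked later or as the exceptions of a list. All called cell type markers are named. Members and lists were chosen with earlier results of these data known. The fit was tested on simulated data. These were drawn with the fit's own spread and hold no effect of dye or intensity, so they say nothing of either. Alternatives were other background, normalization, signal, filter, probe, array, replicate and dye settings.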

Additional observations from a re-analysis of the deposited data

Results flagged for a closer look

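Nars2 in starved cells stood out because 1 sample lay far from the rest: array 1 had a level of 9.66, against 9.55 to 9.56 on the other arrays, a gap of 0.900 of the range of that group. That is above the critical value of Dixon's test for 4 samples, which chance passes in about 1 of 20 groups of independent samples. The 4 levels here come from 2 arrays of each of 2 replicates and are not independent, so that rate does not apply. Of 72 groups examined (36 members in starved and in unstarved cells) Nars2 in starved cells was the 1 that passed. Nars2 kept its call without array 1.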

How the results depend on the processing

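Sars, Cars, Aars, Nars, Rars and Mars2 kept direction and call in every alternative but median centring, as far as that alternative had a test. Median centring gave 0 calls among the members in either compartment and direction (0 also at an unadjusted p under 0.05, against 14 with loess in limma), while 249 of all genes were called, 5 other ATF4 pathway genes higher and 0 lower, 0 scaffold genes, 0 mitochondrial translation genes and 2 interferon genes. Its medians were -0.104 for cytosolic and -0.251 for mitochondrial enzymes, the median of all genes moved by -0.0842, and the sign turned for Eprs (-0.0283), Iars (-0.0847), Lars (-0.148), Qars (-0.163), Tars (-0.0658), Vars (-0.124) and Lars2 (-0.229). The cause was not tested.

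The other pairings of arrays (1+2 with 3+4, 1+4 with 2+3) and a dye term treat the difference between replicates as dye and called all 36 members: 13 cytosolic higher and 7 lower, 5 mitochondrial higher and 11 lower, 11 of the ATF4-listed higher and 6 of the other cytosolic lower. They called 2 other ATF4 pathway genes lower and 8 mitochondrial translation genes lower, with 3 of the latter higher, or 4 with the dye term. Of all genes they called 14296, 14102 and 14209, so these calls are not particular to the members.

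With the mean of all probes 1 cytosolic enzyme (also 1 off the ATF4 list) was called lower, 0 mitochondrial higher and 1 lower, the medians were 0.131 for all cytosolic enzymes and -0.162 for those off the ATF4 list, and Wars2 turned to -0.00660. Processed signals, the deposited value table and the filter on both groups each left 0 mitochondrial enzymes and 0 mitochondrial translation genes called higher, and a normexp offset of 10 also 0 of the last. Leaving out each array in turn gave 5 cytosolic higher throughout, 2 to 4 lower (also 2 to 4 off the ATF4 list), 0 to 1 mitochondrial higher and 2 lower, with 0 to 1 mitochondrial translation genes higher. Without replicate 1 or 2 no test is left, and the mitochondrial median was -0.153 and -0.094. Leaving out a replicate turned the sign in 5 members, whose ratios ran from -8.88e-04 to 0.523 for Lars2, -0.295 to 0.0859 for Tars2, -0.267 to 0.372 for Vars, -0.492 to 0.0123 for Hars2 and -0.192 to 0.00763 for Iars2. The main ratios hold the replicate block within each array. The random replicate block called 5 mitochondrial translation genes lower, and that fit and the unpaired one without a replicate block each called 6 cytosolic enzymes higher and 3 lower and changed no other count by over 1.5 times.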
